A study of Arabidopsis thaliana with 12 samples.

Results

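The 32 probe sets described here were lower in steroid-treated than in mock-treated Arabidopsis thaliana inflorescence tips on both day 3 and day 7 after treatment. They were found among 22746 probe sets of the Affymetrix ATH1 array that are not array controls. A probe set was kept when its mean log2 difference, steroid minus mock, was at most -0.58 on each of the days, both steroid arrays lay below both mock arrays on each of them, and its mean scaled signal in mock tips of day 7 was at least 25. The scaled signal is the deposited intensity after each array was multiplied to the common median of 24.8, and log2 values are of the scaled signal plus an offset of 4.35, so they understate ratios of weak signals. SWEET11, which met the same conditions, and AGL71 were set aside. The members were thus selected on the day 3 and day 7 arrays, whose differences are a description and carry no test, whereas the arrays of day 1 took no part in the choice.

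Every plant was homozygous for ap1-1 and cal-1 and carried 35S:AGGR, a fusion of AGAMOUS to the rat glucocorticoid receptor driven by the constitutive 35S promoter. The steroid groups received 10 µM dexamethasone with 0.1% ethanol and 0.015% Silwet L-77, and the mock groups received the same ethanol and Silwet L-77 without dexamethasone, on the inflorescence tips. Tips were taken 1, 3 or 7 days later, with 2 independent samples in each of the 6 groups and 1 array for each sample. Since plants lacking 35S:AGGR are not among the groups, an action of dexamethasone itself and one of AGAMOUS cannot be told apart, and in whole tips fewer cells of a type and less RNA per cell cannot be told apart either.

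AGAMOUS is a MADS-domain transcription factor that specifies stamens and carpels and ends the activity of the floral meristem. In ap1 cal double mutants the inflorescence forms masses of meristems in place of flowers, and a steroid-activated fusion protein moves to the nucleus when the hormone binds its receptor part.

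Deposited array medians ran from 16.1 to 20.8 on day 1, from 20.1 to 32.2 on day 3 and from 62.6 to 95.2 on day 7. RNA quality, read as GAPDH signal at the 3' end over that at the 5' end, was 7.93 and 8.47 in steroid against 4.16 and 11.2 in mock tips on day 1, 6.60 and 15.8 against 8.36 and 12.2 on day 3, and 1.41 and 1.09 against 1.31 and 1.32 on day 7. In GAPDH the treatments overlapped on days 1 and 3, and the mock values of day 7 lay between the steroid ones. The same ratio of actin did not overlap on day 3, at 3.45 and 4.54 in steroid against 5.55 and 8.66 in mock tips, nor on day 7, at 6.42 and 6.05 against 4.37 and 6.03. That of ubiquitin overlapped on days 1 and 3 and not on day 7, at 1.85 and 1.86 in steroid against 1.61 and 1.68 in mock tips. The part of RNA quality in the results was not tested. On day 7 the steroid arrays were read in a scan of their own and so were the mock arrays, which leaves treatment and scan date confounded there: they cannot be told apart. On day 3 steroid replicate 2 was read in another scan than the other arrays of that day. It also had the highest GAPDH ratio, 15.8. The part of this scan difference in the day 3 choice of members was not tested. Steroid replicate 2 of day 3 shared its scan with every day 1 array except mock replicate 1. In scan, day 1 is therefore not fully apart from the arrays that chose the members. Of 63 cell type markers 12 had a name on the array, and none of the xylem, phloem and pollen markers did. The tissue label could therefore be checked only through the stem cell gene CLV3, at 13.3 to 43.0 in steroid and 27.1 to 29.3 in mock tips on day 1, and the floral meristem gene UFO, which did not pass the filter on weak signals. Summed over CLV3 and UFO, 2 of the 9 meristem markers, the level was 20.6 to 21.3 in steroid against 32.3 to 36.8 in mock tips on day 3 and 16.0 to 18.2 against 19.1 to 28.5 on day 7, while CLV3 alone was higher on day 7, at 14.0 and 12.7 against 8.19 and 11.1. The epidermal gene FDH read 142 and 137 in steroid tips against 161 and 198 in mock tips on day 7, and 42.1 and 72.6 against 85.2 and 80.0 on day 1, without overlap. On day 3 it overlapped, at 44.4 and 56.9 in steroid against 38.3 and 87.9 in mock tips. The root gene PYK10 read 8.52 and 7.18 against 11.3 and 10.7 on day 7, but 26.4 in both steroid arrays against 12.4 and 9.70 on day 3. The trichome repressor TRY was higher without overlap on days 3 and 7, at 19.0 and 19.6 in steroid against 11.1 and 9.46 in mock tips on day 7. The stamen markers AMS, EMS1 and SPL, of 7 listed, summed to 112 to 142 in steroid against 86.7 to 92.8 in mock tips on day 3. Their sums overlapped on days 1 and 7. EMS1 made up most of the stamen sum, and on day 3 it alone was higher without overlap. AMS and SPL overlapped on day 3 and did not pass the filter on weak signals, so the day 3 difference describes EMS1 only. The carpel markers SPT and INO, of 6, summed to 155 to 167 in steroid against 174 to 204 in mock tips on day 3, lower without overlap, and to 111 to 123 against 99.6 to 109 on day 7, higher without overlap. SPT made up most of this sum. On day 7 SPT was higher, at 116 and 101 in steroid against 89.5 and 98.7 in mock tips. INO was lower that day, at 7.53 and 9.93 against 10.1 and 9.98. The part of these markers in the results was not tested.

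A single gene name belongs to 17 of the 32 probe sets, 1 matches several genes and 14 carry no name in the annotation used here and are given by identifier. On day 3 all 32 were lower by construction, with a median log2 difference of -0.76 (0.590 times the mock level) and a range from -1.79 to -0.59. On day 7 the median was -0.74 (0.599 times) and the range from -1.64 to -0.58. The same size and separation in the lower direction were met by 6.36% of all probe sets on day 3, by 2.06% on day 7 and by 0.317% on both days, and in the higher direction by 0.519% on both days. The fall was the larger on day 7 in 15 members and the larger on day 3 in 17. The size differed most between the days in AT1G18810, 264339_at, 267644_s_at and 249817_at, which had day 3 differences from -1.79 to -1.57, but -0.84 to -0.71 on day 7. Just inside the size threshold lay AT3G02910 at -0.59 on day 3, AT1G25230 at -0.60 on day 7 and AT3G07270 at -0.60 on day 7, and just outside it AT3G54130 at -0.576, AT3G59780 at -0.568 and AT5G02540 at -0.555, all on day 7. Membership rests on 2 arrays a group: without mock replicate 1 of day 3 the rule found 61 probe sets, of which 28 were among the 32. Without steroid replicate 2 of day 3 it found 54, of which 22 were among them. The separation then compares fewer arrays, so larger counts follow in part from the looser rule.

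**Figure D1:**
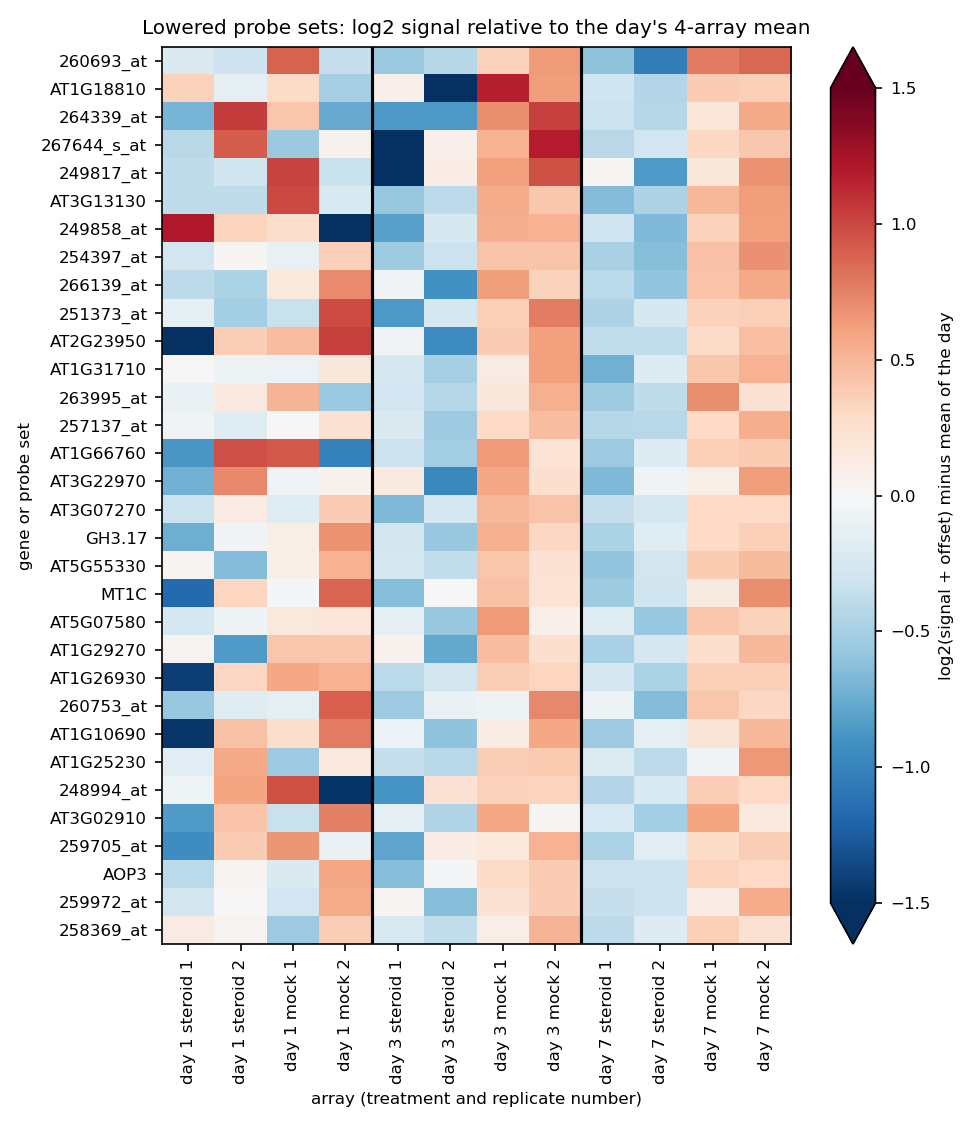
Heat map of the log2 signal of the 32 probe sets (rows, ordered by the mean of the day 3 and day 7 differences) on the 12 arrays (columns, steroid left of mock within each day), relative to the mean of the day's 4 arrays. On days 3 and 7 each row is lower in both steroid than in both mock arrays by the rule, whereas on day 1, which the rule did not use, 21 of the 32 rows overlap between treatments.

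Day 1 asks whether these probe sets already differed a day after treatment, on arrays that did not choose them. Of the 32, 23 had a lower mean in steroid than in mock tips and 9 a higher mean, with a median log2 difference of -0.36 (0.782 times the mock level). Among the 11362 probe sets at or above the same brightness, 56.0% lay below 0 and the median was -0.05. Both steroid arrays lay below both mock arrays in 10 members, against 18.6% of the bright probe sets, and 8 of these also fell to -0.58 or lower, which is 25% of the members against a background of 5.10% of the bright and 7.36% of all probe sets. In 1 member both lay above by at least 0.58, against 3.10% of the bright probe sets. The median of the 32 was -0.11 without steroid replicate 1 of day 1, with 20 of them below 0, so its size leans on that array. Without mock replicate 1, the only day 1 array of another scan, and equally with scan as a block, the median was -0.35 and 23 lay below 0.

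No single member passed the test on day 1. limma on the 4 day 1 arrays called 0 of the 32 members and 0 of 16511 tested probe sets (background 0.00%), with every member at adjusted p = 0.999. Before adjustment 517 tested probe sets had p under 0.05, and 19 were called without mock replicate 2 of day 1, none of them a member. With all 4 arrays 2 members had an unadjusted p under 0.05, both lower, against 1.88% of the tested probe sets with a lower mean and such a p. That count was 7 without mock replicate 1, of which 6 were lower, and 6 without steroid replicate 2, all lower, against 0.999% and 2.01% of the tested probe sets lower with such a p. A fit of all 12 arrays called 0 members and 3 of the tested probe sets (0.0182%), with an adjusted p of at least 0.452 among the members. On simulated day 1 arrays limma called 23 of 100 probe sets changed by log2 3 and 0 of 100 changed by log2 1, so differences of the members' size could not be called one by one at this number of arrays.

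**Figure D2:**
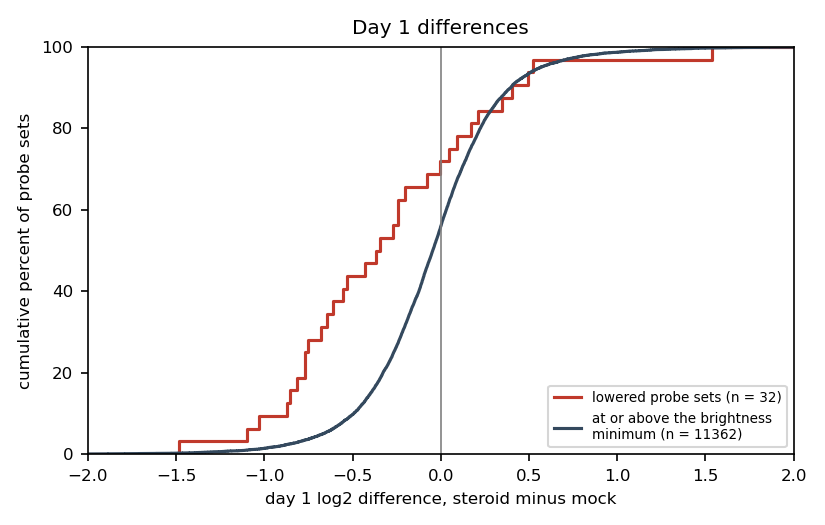
Cumulative percent of probe sets (vertical axis) by their day 1 log2 difference, steroid minus mock (horizontal axis), for the 32 lowered probe sets and for the 11362 probe sets at or above the brightness minimum, which include them. The curve of the lowered probe sets lies to the left over most of its range, with medians of -0.36 and -0.05, and 1 member lies far to the right at 1.54.

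The weak day 1 signals limit some members more than others. In 10 of the 32 at least 2 of the 4 day 1 arrays were at or below that array's 40th percentile, and 16 were above it on all 4. Among the 17 members whose mean over the 4 day 1 arrays reached 25, 15 lay below 0, the median was -0.37, and 6 were separated and at -0.58 or lower. For the 10024 probe sets that are bright in both ways the median was -0.05, 56.9% lay below 0 and 4.29% were separated and at -0.58 or lower. Of the 15 dimmer members 8 lay below 0, with a median of 0.00 when rounded (-0.00494). This split was chosen after the data were seen.

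Among the members with regulatory roles, AT2G23950, encoding a leucine-rich repeat receptor-like kinase, had the lowest day 1 mean difference of the 32. Its scaled signals were 6.17 and 44.6 in steroid against 48.1 and 72.7 in mock tips on day 1, 42.4 and 21.0 against 58.7 and 69.8 on day 3, and 26.5 and 26.4 against 44.4 and 50.2 on day 7. The treatments did not overlap on any of the days. Its day 1 difference of -1.49 (SE 0.64, limma adjusted p = 0.999) rested mostly on steroid replicate 1, and was -0.38 without that array. The differences were -0.99 on day 3 and -0.74 on day 7.

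AT1G10690, encoding a small protein of the SIAMESE-related family of cyclin-dependent kinase inhibitors, was also lowest in steroid replicate 1 of day 1. It read 4.42 and 28.4 in steroid against 24.6 and 36.8 in mock tips on that day (log2 -1.03, SE 0.65), so the higher steroid array lay above the lower mock array. On day 7 it read 24.4 and 34.0 against 43.7 and 54.9, with -0.68 on both day 3 and day 7. AT1G26930, an F-box protein gene with kelch repeats, read 2.01 and 16.6 in steroid against 20.8 and 19.9 in mock tips on day 1 (log2 -1.10, SE 0.68), and was -0.68 on day 3 and -0.72 on day 7. In all of these genes steroid replicate 1 of day 1 was the lowest array of that day, and without it the day 1 differences were -0.08 for AT1G10690 and -0.24 for AT1G26930.

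AT5G07580, a gene of the ERF family of transcription factors, had the smallest day 1 standard error of the regulatory members. It read 159 and 181 in steroid against 214 and 219 in mock tips on day 1, 187 and 139 against 324 and 219 on day 3, and 175 and 132 against 264 and 252 on day 7. The treatments were separated on all of these days, and the differences were -0.34 (SE 0.23, adjusted p = 0.999), -0.71 and -0.75. Leaving out any 1 array of day 1 kept its day 1 value between -0.43 and -0.25. AT1G18810, related to phytochrome kinase substrate proteins that act in light signalling, had no settled direction on day 1. It stood at 29.4 and 19.7 in steroid against 28.0 and 14.3 in mock tips, overlapping (log2 0.21, SE 0.48, and from -0.19 to 0.61 when any 1 array was left out), while on day 3 it read 18.9 and 1.73 against 45.2 and 29.7.

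GH3.17 is an amidosynthetase that joins auxin to glutamate and so removes it from the active pool. It was the only member matched to any of the 23 pathway lists drawn up for the array, in the auxin list. That list matched 16 of the 22746 probe sets and the largest list 59. The share of all probe sets matched to any list was not counted, so a single match is not read as a result about the members. Lists were matched by gene symbol or synonym, so members without a name or with only a locus tag could be missed. The ERF family gene AT5G07580 was not matched, and the glucosinolate list did not include the AOP genes. GH3.17 read 35.8 and 60.7 in steroid against 67.3 and 102 in mock tips on day 1. The signals were 40.7 and 32.6 against 74.6 and 63.7 on day 3, and 37.3 and 46.7 against 67.0 and 69.7 on day 7. All steroid arrays lay below all mock arrays within each day. The differences were -0.77 (SE 0.35, limma adjusted p = 0.999), -0.85 and -0.66, and the day 1 value ran from -1.12 to -0.42 when any 1 array was left out.

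Other auxin genes differed from it in direction or size on at least 1 day. Of the 13 tested genes of the list, 3 met the size and separation in the lower direction on day 3, against 5.60% of the tested probe sets. These were GH3.17 and, named after their values were seen, IAA20 and IAA34. Only GH3.17 did on day 7, against 1.77%, and on day 1, against 6.33%. GH3.17 met them on days 3 and 7 by the rule, so its part in those counts was fixed by the choice of members. IAA34 was near the floor, at 4.80 in steroid against 12.7 in mock tips on day 3. It was higher in steroid tips on day 7, at 2.37 against 0.954 (log2 0.35). List medians were 0.24 on day 1, 0.16 on day 3 and -0.33 on day 7, against -0.03, -0.12 and 0.00 (0.000861) over all tested probe sets. Within the GH3 family, GH3.3 averaged 57.7 in steroid against 24.8 in mock tips on day 7 (log2 1.09, both steroid arrays above), the direction opposite to GH3.17 and met in size and separation by 2.28% of the tested probe sets. WES1 averaged 250.5 in steroid against 330 in mock tips on day 7 (log2 -0.40), with 0.24 on day 1 and 0.19 on day 3. GH3.9 was at -0.52 on day 7 but 0.53 on day 3, without overlap on either day, and GH3.1, at 0.530 and 3.06 on day 7, did not pass the filter on weak signals.

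**Figure D3:**
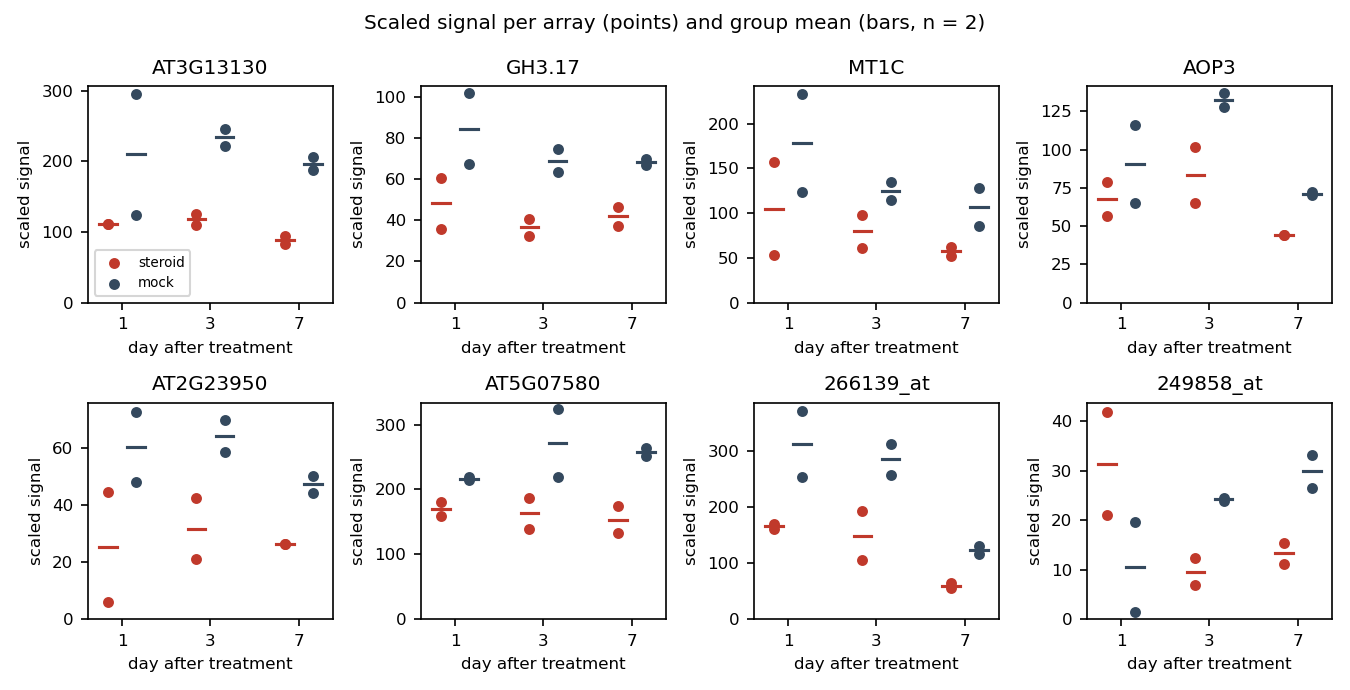
Scaled signal (vertical axes, each starting at 0) of 8 lowered probe sets on days 1, 3 and 7 (horizontal axes), with a point for each array and a bar at each mean of 2 arrays, steroid left of mock. GH3.17, AT2G23950, AT3G13130, AT5G07580 and 266139_at were separated on all 3 days, MT1C and AOP3 overlapped on day 1, and 249858_at was higher in steroid tips on day 1.

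Of the members with metabolic roles, AOP3, a dioxygenase of aliphatic glucosinolate side chain modification, had nearly equal replicates on day 7. It read 44.3 and 44.4 in steroid against 72.0 and 70.5 in mock tips on that day (log2 -0.63), and 65.0 and 102 against 128 and 137 on day 3 (-0.67). On day 1 it overlapped, at 56.6 and 78.5 against 65.3 and 116 (-0.37, SE 0.33), and ran from -0.76 to 0.03 when any 1 array was left out. AOP1, the other AOP gene named on the array, is next to AOP3 in the order of protein-coding genes of the annotation. AOP1 averaged 46.6 in steroid against 36.6 in mock tips on day 7 (log2 0.32, both steroid arrays above). It averaged 84.2 against 92.8 on day 3 (-0.13) and 76.6 against 99.5 on day 1 (-0.36). The AOP genes thus had opposite signs on day 7 and both lay below 0 on days 1 and 3, and the difference between them was not tested.

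MT1C, a metallothionein gene whose product binds metal ions, was lower in steroid tips by means on each day. It read 53.2 and 157 against 123 and 233 on day 1, where the treatments overlapped (log2 -0.85, SE 0.47, adjusted p = 0.999). On day 3 it read 61.5 and 97.7 against 135 and 114 (-0.65), and on day 7 it read 52.6 and 62.3 against 85.6 and 129 (-0.83). It was the only metallothionein gene named on the array, and without steroid replicate 1 its day 1 value was -0.11.

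AT5G55330, of a family of membrane-bound acyltransferases related to wax synthases, was separated on each day. Its steroid and mock signals were 18.5 and 9.89 against 19.4 and 27.7 on day 1 (log2 -0.61, SE 0.51, but -0.27 without steroid replicate 2 and -0.95 without steroid replicate 1), and 15.5 and 20.5 against 34.8 and 37.2 on day 7 (-0.86). The protein-coding genes next to it in the annotation, AT5G55320 and AT5G55340, were at 0.08 and 0.20 on day 7. AT3G07270, a GTP cyclohydrolase gene of folate synthesis, read 49.8 and 52.9 in steroid against 80.4 and 80.3 in mock tips on day 7 (-0.60), with -0.92 on day 3 and -0.20 on day 1, where it overlapped.

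AT1G31710, a copper amine oxidase gene, was close to equal between treatments on day 1. It read 38.9 and 36.5 in steroid against 36.2 and 44.2 in mock tips on day 1 (log2 -0.08, SE 0.34), 25.6 and 20.9 against 34.4 and 50.1 on day 3 (-0.74), and 9.75 and 16.1 against 26.4 and 29.0 on day 7 (-0.92). A further probe set of the same gene, 246602_at, did not pass the filter on weak signals and averaged 8.96 in steroid and 8.92 in mock tips on day 7. The neighbouring protein-coding gene AT1G31690 was at 0.68 on day 7 in its tested probe set.

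Genes with transport or hydrolytic roles had no common direction on day 1. AT1G66760, of the MATE family of efflux transporters, averaged 9.91 ± 11.4 in steroid and 9.28 ± 11.3 in mock tips on day 1 (SD, n = 2 each), and 66.4 ± 12.1 against 113 ± 2.06 on day 7 (log2 -0.74). AT1G25230, a metallophosphoesterase gene, averaged 23.3 ± 9.61 against 16.4 ± 6.92 on day 1 (log2 0.41) and 20.4 ± 2.35 against 34.2 ± 13.2 on day 7 (-0.60). AT3G02910, an AIG2-like gene related to gamma-glutamyl cyclotransferases, averaged 18.3 ± 13.3 against 25.3 ± 15.1 on day 1 (-0.43) and 42.0 ± 6.48 against 73.6 ± 16.9 on day 7 (-0.74). All of these overlapped between treatments on day 1.

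Members of unknown role included the named gene with the largest fall on day 7. AT3G13130 read 111 in both steroid arrays against 296 and 124 in mock tips on day 1, 110.4 and 126 against 245 and 222 on day 3, and 82.7 and 94.4 against 188 and 206 on day 7. It was separated on each day, with differences of -0.77 (SE 0.37, limma adjusted p = 0.999), -0.96 and -1.11. The day 1 value was set largely by mock replicate 1, the array of another scan, and was -0.16 without it. AT1G29270 read 52.1 and 26.1 in steroid against 68.9 and 68.4 in mock tips on day 1 (log2 -0.82, SE 0.36, but -0.37 without steroid replicate 2 and -1.26 without steroid replicate 1), and 13.2 and 16.3 against 24.9 and 30.2 on day 7 (-0.74). AT3G22970, a DUF506 gene, showed no day 1 difference by means, at 12.2 ± 10.9 in steroid and 10.4 ± 0.785 in mock tips (SD, n = 2 each, log2 -0.00494), and -0.84 and -0.71 on days 3 and 7.

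Of the unnamed members, 266139_at had the smallest unadjusted p of the 32 on day 1. Its signals were 170.1 and 161 in steroid against 253 and 369.7 in mock tips on day 1, 193 and 105 against 311 and 257 on day 3, and 63.7 and 55.2 against 116 and 129 on day 7. All steroid arrays lay below all mock arrays within a day, with differences of -0.87 on day 1 (SE 0.26, limma adjusted p = 0.999) and -0.97 on day 3. The day 1 value stayed between -1.14 and -0.60 when any 1 array was left out. Probe set 260753_at was separated on day 1 as well, at 33.5 and 45.1 against 46.4 and 101 (-0.75, SE 0.40, but -0.23 without mock replicate 2), with -0.64 on day 3 and -0.72 on day 7.

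The largest mean fall over days 3 and 7 belonged to 260693_at. It read 43.2 and 40.1 in steroid against 97.5 and 39.1 in mock tips on day 1, 30.9 and 34.1 against 61.5 and 76.3 on day 3, and 19.3 and 13.1 against 57.4 and 60.9 on day 7. The day 7 difference of -1.64 was the lowest of the members, against -0.99 on day 3 and -0.53 on day 1. The day 1 value was 0.08 without mock replicate 1. Probe set 254397_at was at -0.24 on day 1, where it overlapped, -0.86 on day 3 and -1.13 on day 7.

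Several unnamed probe sets were close to the floor on day 1. Probe set 264339_at averaged 7.13 ± 8.76 in steroid and 3.90 ± 4.50 in mock tips on day 1, 1.99 ± 0.0200 against 16.6 ± 3.38 on day 3, and 97.1 ± 5.40 against 167 ± 32.1 on day 7 (SD, n = 2 each). Probe set 251373_at averaged 10.6 ± 2.66 against 21.3 ± 15.6 on day 1 and 104 ± 12.2 against 172 ± 0.901 on day 7. In 267644_s_at, which matches several genes, and in 249817_at the day 1 differences were 0.49 and -0.68, both with overlap. Probe set 257137_at was separated on day 1 by a smaller step, at 236 and 215 in steroid against 247 and 289 in mock tips (-0.24, SE 0.23, and from -0.35 to -0.13 when any 1 array was left out). With it, the other 6 unnamed members ranged from -0.55 to 0.52 on day 1, with 3 of them below 0, from -0.76 to -0.59 on day 3 and from -0.92 to -0.58 on day 7.

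**Figure D4:**
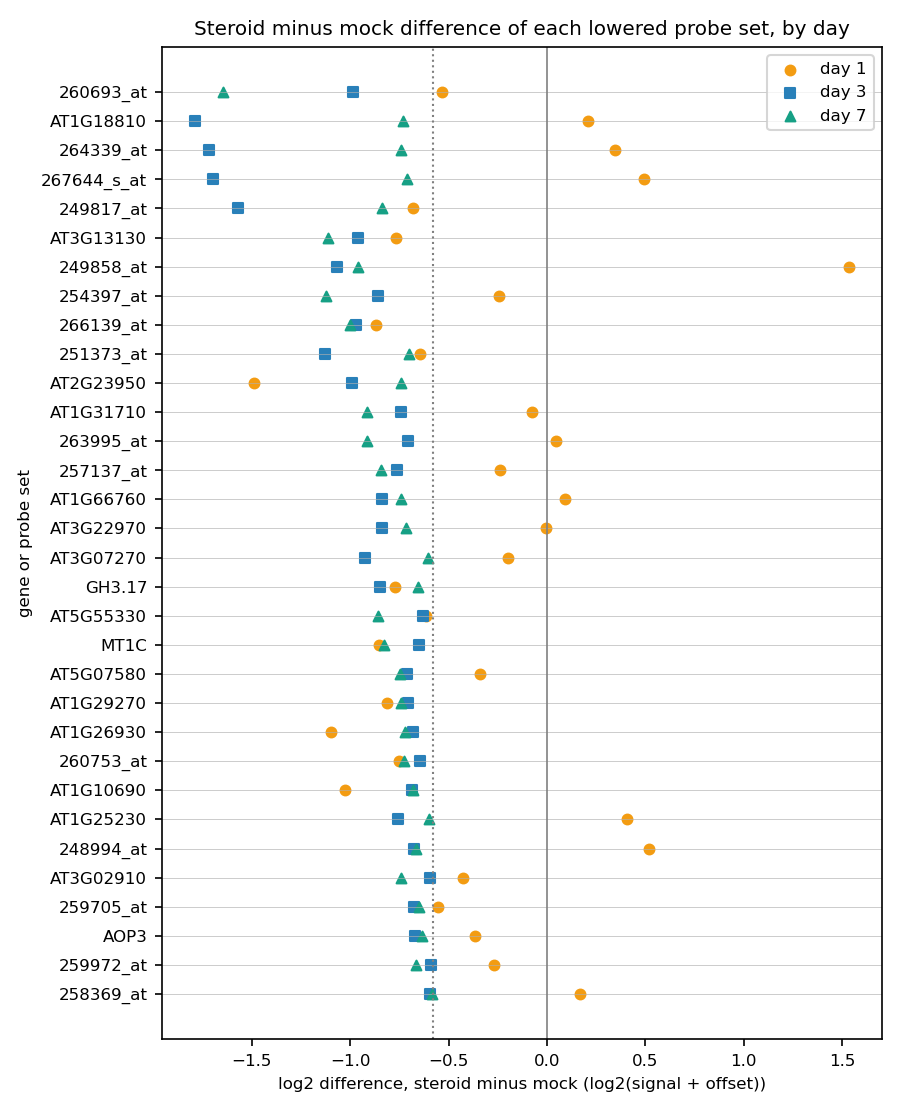
Log2 difference, steroid minus mock (horizontal axis), of each of the 32 probe sets (rows) on day 1 (circles), day 3 (squares) and day 7 (triangles), with a dotted line at the size threshold of -0.58 that days 3 and 7 had to meet. Day 1 values spread from -1.49 in AT2G23950 to 1.54 in 249858_at, and 9 of the 32 lie above 0.

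The members also differed in their course in mock tips, which is a description because the rule used mock day 7. The log2 level of mock tips was higher by at least 1 on day 7 than on day 1 in 7 of the 32 and lower by at least 1 in 2 of them, with a median difference of 0.46, against -0.10 over the tested probe sets. The tested probe sets had no minimum of mock day 7 signal, whereas the members did, which favours high day 7 levels. The medians are therefore not a like comparison, and the share of all probe sets with such changes was not counted. Among the members the largest differences were those of 264339_at at 4.48, AT1G66760 at 3.41 and 251373_at at 2.92, and the lowest were those of 266139_at at -1.29 and AT1G29270 at -1.20. So the day 7 steroid level of 264339_at, at 97.1, lay above its mock level of day 1, whereas in AT1G29270 the day 7 levels of 14.7 in steroid and 27.5 in mock tips both lay below those of day 1, at 39.1 and 68.6. No scan held both days, so day and scan cannot be told apart in this comparison.

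Genes next to the named members in the order of protein-coding genes of the TAIR10.1 annotation were not among the 32. Of 21 probe sets for such neighbours 15 were tested, and 1 of these met the size and separation on day 3, AT5G07590 beside AT5G07580 at -0.62, against 5.60% of the tested probe sets. None did on day 7, against 1.77%, and the neighbours' medians were -0.13 on day 3 and 0.15 on day 7. Matched by symbol or synonym, the other 22 pathway lists held no member, and 4 of the 23 had no tested gene. The lists were small, at most 59 of the 22746 probe sets each, so the lack of members is not read as a result about them.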

How the data were processed

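Per the submitters' processing notes, the authors computed the deposited values with MAS5, as a linear intensity for every probe set of each array. The version and scaling target are not given in the sources used here. Each of the 12 arrays was scaled to the median of the array medians, and the median over arrays of the 20th percentile was added before log2. Of 22746 probe sets, 16511 were tested: those above an array's 40th percentile on at least 2 arrays, all 32 members among them. The annotation gives a single gene to 13513, several to 503 and none to 8730 probe sets.

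The test was limma 3.58.1 in R 4.3.3 (lmFit, eBayes with a variance trend) on the 4 day 1 arrays, two-sided, with Benjamini-Hochberg adjustment over all tested probe sets and a threshold of 0.05. Days 3 and 7 stayed out because the members were chosen on the separation of those arrays. With 2 arrays on each side the smallest exact permutation p is 0.333. Scan dates came from the deposited scanner records. Alternatives changed normalization, centring, offset, filter, samples and blocks.

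The members and the gene lists were chosen with earlier results of these data known. Named in the text are up to 30 members with a gene name and up to 8 without, by their mean fall on days 3 and 7, those separated on day 1 and lower by at least 0.58 or opposite in sign, the named genes nearest the thresholds, and genes of a listed family that holds a member. Probe set 257137_at, IAA20, IAA34 and the families beside members were chosen after the data were seen. Promoters and sequences were not used here.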

Additional observations from a re-analysis of the deposited data

Results flagged for a closer look

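Probe set 249858_at, which has no gene name here, was the only 1 of the 32 in which the steroid arrays of day 1 both exceeded the mock arrays. It read 41.8 and 21.0 in steroid against 19.7 and 1.43 in mock tips on that day, a log2 difference of 1.54 (1.5359, SE 0.72, limma adjusted p = 0.999), and 2.57 without mock replicate 1 but 0.51 without mock replicate 2. On day 3 it read 6.85 and 12.3 against 24.6 and 24.0 (log2 -1.07) and on day 7 it read 15.4 and 11.2 against 26.6 and 33.2 (-0.96). The samples of day 1 thus moved opposite to those of days 3 and 7, and the difference between days was not tested, because the later days chose the probe set.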

How the results depend on the processing

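The count of members below 0 on day 1 ran from 20 to 27 when any 1 day 1 array was left out, and their median from -0.47 to -0.11, against 23 and -0.36 with all arrays. The count was 22 or 23 under every other alternative over the 32. The filter settings, the fit of 12 arrays and the replicate block leave each member's difference unchanged by construction. Scan as a block gives the same differences as leaving out mock replicate 1. Of these other alternatives, only normalization, centring and offset could thus move the count independently. Restricted to the 17 also bright on day 1, it was 15, which follows from the smaller number; this restriction and the removal of the brightness minimum were chosen after seeing the data. The median was -0.30 with quantile normalization, and its cause was not tested. No alternative called a member. Members with an unadjusted limma p under 0.05 were 2 with all 4 day 1 arrays, where 3.13% of the tested probe sets had such a p. They were 7 in the fit of 12 arrays (8.32%), 7 with scan as a block (2.89%) and 8 with the replicate block (5.91%). The fit of 12 arrays takes part of its spread from the arrays that chose the members, so that spread is too small for them. Over all tested probe sets the count called on day 1 was 3 with all 12 arrays in 1 fit, 2 with the replicate block (0 members, median -0.36), and from 0 to 19 when 1 array was left out, the 19 without mock replicate 2. The lone array is then assumed to vary like the other group. The replicate numbers are only numbers in the labels, and same-numbered day 1 samples deviated together with r = 0.12 across probe sets. The sign of the day 1 difference changed under at least 1 alternative in 16 of the 32, in 15 of them only by leaving out an array or adding a block. The rule itself found 71 probe sets without the brightness minimum. It found from 26 to 61 when 1 array of day 3 or 7 was left out, with 54 without steroid replicate 2 of day 3. The separation is looser with an array left out, so larger counts follow from this in part. The rule found 23 with quantile normalization, with centring or with the double offset, and 35 with the smaller offset.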

Other observations

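A further 39 probe sets met the size and separation on days 3 and 7 but were dimmer than the minimum in mock tips of day 7, and 20 of them have a gene name. The floral meristem gene UFO, an F-box protein that acts with LEAFY, was among them. It read 1.77 and 3.82 in steroid against 12.3 and 6.62 in mock tips on day 3, 2.02 and 5.49 against 10.9 and 17.4 on day 7, and 13.1 and 1.71 against 2.62 and 1.67 on day 1, where all arrays but 1 were near the floor. UFO did not pass the filter on weak signals, and its steroid arrays of days 3 and 7 were near the floor too. On day 1, 18 of the 39 lay below 0, with a median of 0.15, against 23 of the 32 brighter probe sets and their median of -0.36.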
